A study of Homo sapiens with 12 samples.

Results

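The genes described here are the 10 m6A writer and eraser genes METTL3, METTL14, METTL16, WTAP, VIRMA, ZC3H13, RBM15, CBLL1, FTO and ALKBH5, taken by name, of 20056 protein-coding genes in RefSeq's table for GRCh38.p14, 12092 of which held a peak in any library. A peak was assigned to a gene when its midpoint lay in the gene's span on the same strand. The peaks come from acetylated RNA immunoprecipitation sequencing (acRIP-seq), which recovers RNA fragments carrying N4-acetylcytidine (ac4C), the mark written by NAT10, with an ac4C antibody. The cells were SW620, a human colorectal cancer line, with 3 control libraries (shControl, labelled WT) and 3 NAT10-knockdown libraries (shNAT10), both made as stable lines with lentiviral short hairpin RNAs and puromycin selection. Which NAT10 hairpin was used for these libraries is not given in the sources used here, and the 6 input libraries were not analysed here. Nothing in the labels says that the 3 libraries of a group came from separate cultures, so p-values measure the spread between these libraries, which may be technical.

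N6-methyladenosine (m6A) is written on mRNA by a complex in which METTL3 carries the catalytic site and METTL14 holds the RNA. WTAP, VIRMA, ZC3H13, RBM15 and CBLL1 (also called HAKAI) are subunits that position and stabilise this pair, while METTL16 methylates a small set of structured RNAs, among them U6 and MAT2A, on its own. FTO and ALKBH5 are demethylases that remove methyl marks from adenosines. A peak in these genes marks a stretch of their transcripts recovered with the ac4C antibody and says nothing of the m6A they write or remove.

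Lists in control cells held between 18241 and 22619 peaks and those in knockdown cells between 17877 and 28752, with the most in knockdown replicate 1. The lists give a score per peak and no read counts, so the depth is unknown, and a change in the amount of a transcript cannot be told apart from a change in its acetylation by the number of peaks. The score was used only as a percentile within its own library, the share of that library's peaks ranked at or below it, with ties at their mean rank. A score of exactly 3100 was shared by 7.61% to 13.7% of each list, and such a peak had a percentile between 92.7 and 96.0 that is set by how many peaks share it. Of 8 colorectal epithelium markers, 5 (EPCAM, KRT8, CDH1, VIL1 and CDX2) had a peak in all 6 libraries, whereas KRT18, KRT20 and CDX1 had none. Of 11 markers of other cell types, 3 (COL1A1, VWF and CDH5) had a peak in any library and 0 in all 6.

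The starts of 4 member transcripts lay in peaks in only some libraries, and the 30 bases that follow each annotated start are shown because the peaks of METTL3, METTL14, FTO and ZC3H13 cover them. The letters are from RefSeq (GRCh38.p14), 5′ to 3′ on the transcript strand, and capitals mark bases inside a peak in every library that had a peak there. They lie at chr14:21511311-21511340 on the minus strand for METTL3, chr4:118685392-118685421 on the plus strand for METTL14, chr16:53704156-53704185 on the plus strand for FTO, whose start in the promoter table lies inside the gene span, and chr13:46052717-46052746 on the minus strand for ZC3H13.
METTL3: ATTTTCCGGTTAGCCTTCGGGGTGTCCGCG
METTL14: AAGTCTCTACTGAGGAAAGCTATGAGGATA
FTO: GCGGTGGCGAAGGCGGCTTTAGTGGCAGCA
ZC3H13: AAACCTCTGACTTCCGGCGGCATTTTGAGG

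A further 3 members, WTAP, CBLL1 and RBM15, had a peak over the start in all 6 libraries. The WTAP and CBLL1 peaks ended at the same base in every library, and that end is shown because the bases after it begin with GT, the pair of letters that opens an intron at a splice donor. Capitals mark the last 30 bases of the peak and small letters the 12 bases that follow. The WTAP stretch is chr6:159727304-159727345 and the CBLL1 stretch chr7:107744147-107744188, both on the plus strand.
WTAP: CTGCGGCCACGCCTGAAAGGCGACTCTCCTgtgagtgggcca
CBLL1: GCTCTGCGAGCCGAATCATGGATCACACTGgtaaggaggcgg

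Over all genes, 604 peak ends lay in the start windows (from 250 bases before to 50 bases after a start), of which 70.5% were followed by GT. The share was 96.1% of the 127 ends found in all 6 libraries and 43.8% of the 267 ends found in 1 library, against 4.55% of all neighbouring base pairs in the windows. The WTAP and CBLL1 ends are thus of the common kind among shared ends. No exon annotation was used here, so it was not tested whether a peak end is an exon end.

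RBM15 differed from these genes in that its peak ran over the start and far into the gene, and the stretch around the start is shown because the upstream edge of the peak differed between libraries there. The window is chr1:110339127-110339406 on the plus strand, and its last 30 bases follow the annotated start. Capitals mark bases inside the peak in all 6 libraries, and in control replicate 3 and the 3 knockdown libraries the small letters were inside the peak as well.
RBM15: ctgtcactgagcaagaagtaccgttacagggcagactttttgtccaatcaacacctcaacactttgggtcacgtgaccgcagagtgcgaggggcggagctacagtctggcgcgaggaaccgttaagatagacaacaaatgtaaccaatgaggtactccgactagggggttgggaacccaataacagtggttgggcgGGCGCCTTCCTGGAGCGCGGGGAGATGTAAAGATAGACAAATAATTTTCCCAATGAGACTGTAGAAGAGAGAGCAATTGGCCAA

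Of the members, 9 had a start window in the table used, and 7 of these 9 had a peak over the first 50 bases in any library and 3 in all 6. Among the 9898 genes with a window and a peak, the shares were 60.2% and 27.5%. The letters CNNCNNCNNC, a spacing of cytidines described for ac4C sites, were searched in each window of 300 bases on both strands, counting overlapping matches, and were found in 81.7% of all 22199 windows on the transcript strand and in 84.9% on the other strand. RBM15 and ZC3H13 held 0 matches on either strand and METTL3 held 2 on the transcript strand and 0 on the other. The WTAP window at its first start held 11 on the transcript strand and 2 on the other, against a transcript-strand median of 3 over all windows. At its later start, 159727506, the WTAP window held 4 and 16. The remaining members with a window held between 1 (FTO and ALKBH5) and 6 (CBLL1) on the transcript strand. The RBM15 window was 21.3% cytidine, below the lower quartile of 24.7% over all windows. A match is a description of letters and not a modified site.

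The members differed widely in their number of peaks. ZC3H13 held 42 of the 121 member peaks over the 6 libraries, more than 97.4% of the genes with a peak, and METTL3 held 3, more than 21.8%. Together the 10 genes held 16, 23 and 16 peaks in control replicates 1 to 3 and 29, 19 and 18 in the corresponding knockdown lists. Control cells averaged 18.3 ± 4.04 and knockdown cells 22.0 ± 6.08 peaks (SD, n = 3 each), a difference of 3.67 peaks that was smaller than the spread between libraries and was 0.167 without knockdown replicate 1. As a share of a library's peaks, the members took 0.0877%, 0.102% and 0.0797% in control cells and 0.101%, 0.106% and 0.0945% after knockdown, and the groups overlapped.

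No member gained or lost its peaks as a whole: 0 of the 10 genes had peaks in all 3 control and no knockdown libraries (0.331% of the 12092 genes with a peak did), and 0 had peaks in all 3 knockdown and no control libraries (0.364%). Of the 10, 0 had more peaks in every control than in any knockdown library (0.653% of all genes) and 1, ZC3H13, had more in every knockdown than in any control library (1.57%). Among the 318 genes with at least as many peaks in total as ZC3H13, 5.66% had more peaks in every knockdown library. The two-sided exact permutation test of 3 against 3 libraries cannot go below p = 0.1, and Benjamini-Hochberg adjustment over the 12092 genes gave an adjusted p of 1 for every member.

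Among the methyltransferases, METTL3 and METTL14 had few peaks, and no region was found in more than 3 libraries. METTL3 (gene ID 56339, chr14:21498138-21511340, minus strand) had 0, 1 and 0 peaks in the control libraries and 1, 0 and 1 in the knockdown libraries. A peak at chr14:21511124-21511375, which starts 35 bases before the annotated gene start, was found in control replicate 2 at percentile 20.5 and in knockdown replicate 3 at 46.1. The other METTL3 peak, 32 bases long at chr14:21509484-21509515, was found in knockdown replicate 1 at percentile 42.3. Neither peak was found in more than 1 library of a group, and the groups overlapped (exact permutation p = 1).

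METTL14 (gene ID 57721, chr4:118685392-118715430, plus strand) had 0, 2 and 0 peaks in control cells and 3, 1 and 0 after knockdown (exact permutation p = 0.7). Its start peak, chr4:118685368-118685600, was found in control replicate 2 and knockdown replicate 1 at percentiles 51.0 and 61.5. A peak 4019 bases into the gene was found in control replicate 2 and knockdown replicates 1 and 2, at percentiles 17.4, 49.4 and 13.5. Its remaining peak, 49 bases long, was found in knockdown replicate 1 at percentile 0.790. Control replicate 2 and knockdown replicate 1 are the libraries with the most peaks of their groups, and 5 of the 6 METTL14 peaks came from them. Without knockdown replicate 1 the difference in METTL14 peak number turned from 0.667 to -0.167.

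METTL16 (gene ID 79066, chr17:2415715-2511888, minus strand) had 1, 2 and 0 peaks in control cells and 2, 0 and 0 in knockdown libraries (exact permutation p = 1). The peak nearest to its start, chr17:2502204-2502331, was found in control replicate 1 at percentile 18.6 and in knockdown replicate 1 at 0.150, at the bottom of that library. The others lay in the last part of the span, at percentiles between 3.98 and 37.0. None of the METTL16 peaks ranked in the upper part of its library, and no region was found in more than 2 libraries.

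WTAP, the subunit that brings the catalytic pair to nuclear speckles, had 2, 3 and 1 peaks in control cells and 2 peaks in each knockdown library by the midpoint rule (gene ID 9589, chr6:159726693-159756319, plus strand; exact permutation p = 1). The peak over its start was present in all 6 libraries at percentiles 88.1, 94.8 and 84.7 in control cells and 92.7, 94.0 and 93.2 in knockdown libraries. Its upstream edge lay 857, 456 and 1023 bases before the gene start in control cells and 221, 564 and 484 bases before it in knockdown libraries, whereas the other edge lay at the same base throughout. In control replicates 1 and 3 the peak reached so far upstream that its midpoint left the span. With any overlap of at least 1 base in place of the midpoint, WTAP had 3, 3 and 2 peaks in control cells and 2 in every knockdown library.

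A second WTAP peak, chr6:159738990-159739045, was present in all 6 libraries at percentiles 72.1, 94.8 and 77.2 in control cells and 92.7, 87.7 and 93.2 in knockdown cells. The groups overlapped (exact permutation p = 0.4). A further WTAP peak, chr6:159743665-159743792, was found in control replicates 1 and 2 at percentiles 21.3 and 0.274 and in no knockdown library. The span of WTAP overlaps that of SOD2, but no peak lay on the other strand of any member.

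VIRMA, the scaffold subunit of the complex, had 2 peaks in every library apart from knockdown replicate 2, which had 3 (gene ID 25962, chr8:94487689-94553469, minus strand by the strand of its peaks; exact permutation p = 1). Both shared peaks had the same start and end in all 6 libraries. The peak at chr8:94529070-94529342 had percentiles of 89.7, 85.2 and 79.4 in control cells and 92.7, 83.8 and 93.2 in knockdown libraries. The peak at chr8:94530963-94531085 had percentiles of 21.2, 34.6 and 17.0 in control cells and 56.0, 22.7 and 57.8 in knockdown libraries. The latter held the largest difference in percentile among the shared regions of the 10 genes: 24.3 ± 9.20 against 45.5 ± 19.8 (SD, n = 3 each). Knockdown replicate 2 lay among the control values, and the difference did not pass the test (exact permutation p = 0.2, adjusted p = 0.669 over 9195 regions).

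ZC3H13, a zinc finger subunit that keeps the complex in the nucleus, had 6 peaks in each control library and 9, 8 and 7 in the knockdown libraries (gene ID 23091, chr13:45954465-46052746, minus strand). The means were 6 ± 0 and 8 ± 1 (SD, n = 3), a difference of 2 peaks with groups that did not overlap, at the smallest p that 3 against 3 libraries allow (exact permutation p = 0.1, adjusted p = 1). Of its 11 regions, 5 were present in all 6 libraries and so added 5 peaks to every library. The difference lay in the other 6 regions, which added 1 peak in each control library and 4, 3 and 2 in the knockdown libraries.

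The 5 shared ZC3H13 regions lay between 67217 and 84980 bases from the gene start, in the last part of the span. The regions at chr13:45975283-45975838 and chr13:45979813-45980004 had the score 3100 in all 6 libraries. The region at chr13:45985297-45985761 had percentiles of 83.3, 86.9 and 70.5 in control cells and 92.7, 84.4 and 93.2 in knockdown libraries (exact permutation p = 0.2). The region at chr13:45968748-45969971 had 81.1, 94.8 and 79.4 in control cells and 92.7, 94.0 and 93.2 in knockdown libraries (exact permutation p = 0.4). The region at chr13:45967504-45968028 had 90.5, 88.7 and 93.2 in control cells and 92.7, 88.1 and 93.2 in knockdown libraries (exact permutation p = 1). All 5 had the same start and end wherever they were found.

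The 6 other ZC3H13 regions had percentiles between 0.969 and 49.99, below every one of the shared regions. The start peak, reaching to chr13:46052746, was found in control replicates 1 and 3 at percentiles 49.99 and 41.9 and in knockdown replicates 1 and 2 at 46.1 and 33.4. A region at chr13:45965280-45965432 was found in control replicate 2 at 18.6 and knockdown replicate 1 at 32.8. The other 4 were found in knockdown libraries only: chr13:46020449-46020557 in replicates 1 and 2, chr13:46003139-46003336 in replicates 2 and 3, and 1 region each in replicates 1 and 3. No region was found in all 3 knockdown libraries.

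With the 50% of each library's peaks with the highest scores, ZC3H13 had 5 peaks in every library. When every list was cut to its 17877 highest-scored peaks, it had 6, 5 and 6 in control cells and 6, 8 and 6 after knockdown, so the groups did not separate under either rule. Knockdown replicate 1, with the 9 peaks, was also the library with the longest list, and the part of list length in the difference was not tested.

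**Figure D1:**
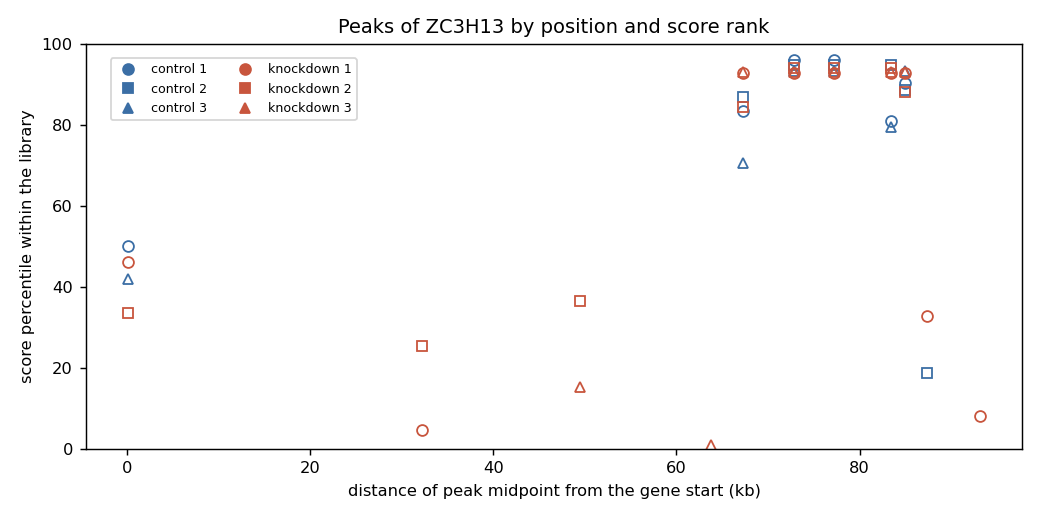
Peaks of ZC3H13 by distance from the gene start along the strand (horizontal axis, kb) and score percentile within the library (vertical axis), with 1 point per peak and library. The 5 regions found in all 6 libraries stand high near the far end of the gene, and the peaks that differ between groups lie at percentiles of 49.99 or lower.

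The genes outside the members whose numbers of peaks were most like those of ZC3H13 were ARHGAP39, BAZ1B and CEP72, each with a sum of absolute differences of 3 peaks over the 6 libraries. The values were 7, 6 and 7 in control cells and 9, 7 and 7 in knockdown libraries for ARHGAP39. For BAZ1B they were 5, 6 and 6 and 9, 6 and 7, and for CEP72 they were 6, 6 and 7 and 10, 7 and 7. In all, 6 genes were at this distance or nearer, and the 3 were taken by symbol.

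RBM15, an RNA-binding subunit that recruits the complex to its sites, had 1 peak in every library (gene ID 64783, chr1:110339377-110346677, plus strand). The peak was long, between 2979 and 3459 bases, which makes it the longest of the members. Its percentiles were 68.3, 34.2 and 85.1 in control cells and 92.7, 52.5 and 61.7 in knockdown libraries, and the groups overlapped (exact permutation p = 0.8). Its upstream edge lay 54, 54 and 461 bases before the gene start in control cells and 539, 536 and 567 bases before it in knockdown libraries.

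The upstream edge of the RBM15 peak was thus farther from the gene in every knockdown library, by 358 bases on average (190 ± 235 against 547 ± 17.1 bases, SD, n = 3 each; exact permutation p = 0.1, adjusted p = 1). This measure was chosen after the edges of RBM15 had been seen. Of the 13 member regions found in all 6 libraries, RBM15 was the 1 with the upstream edge farther out in every knockdown library, and 0 had it farther out in every control library. Over the 9195 regions in all 6 libraries the shares were 0.555% and 0.435%. Of the 13, 10 had the same start and end in all 6 libraries, as did 69.5% of the 9195, so their upstream edge could not differ. Control replicate 3 lay near the knockdown values, while the other 2 control libraries started close to the annotated start.

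CBLL1, an E3 ubiquitin ligase that binds the complex, had 1, 2 and 2 peaks in control cells and 1 in each knockdown library (gene ID 79872, chr7:107744142-107761667, plus strand; exact permutation p = 0.4). A peak at chr7:107758143-107759604 was present in all 6 libraries at percentiles 70.6, 69.4 and 45.2 in control cells and 57.0, 54.5 and 51.3 in knockdown libraries (exact permutation p = 0.4). Its length was 1296, 1092 and 1293 bases in control cells and 1141, 1462 and 1462 bases in knockdown libraries (exact permutation p = 0.3). A peak 9319 bases into the gene was found in control replicates 2 and 3 at percentiles 37.0 and 18.2 and in no knockdown library. The groups overlapped in each of these measures.

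The peak over the start of CBLL1 was present in all 6 libraries but its midpoint lay outside the span, so it was not counted by the midpoint rule. Its upstream edge lay 404, 384 and 445 bases before the gene start in control cells and 445, 399 and 445 bases before it in knockdown libraries, and its other edge lay 34 bases after the start throughout. Its percentiles were 15.2, 41.5 and 39.8 in control cells and 35.6, 19.1 and 18.4 in knockdown libraries. With any overlap, CBLL1 had 2, 3 and 3 peaks in control cells and 2 in every knockdown library.

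Of the demethylases, FTO had 1, 2 and 2 peaks in control cells and 6, 1 and 2 in knockdown libraries (gene ID 79068, chr16:53703963-54121941, plus strand). The means were 1.67 ± 0.577 and 3.00 ± 2.65 (SD, n = 3), and the groups overlapped (exact permutation p = 0.9). Of the 6 peaks in knockdown replicate 1, 4 were found in no other library, at percentiles of 4.83 to 20.1. Without that library the difference turned from 1.33 to -0.167.

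The start peak of FTO, chr16:53703963-53704229, was found in control replicates 1 and 3 at percentiles 62.0 and 60.4 and in knockdown replicates 1 and 3 at 45.9 and 49.8. The knockdown values were lower than the control values in these 4 libraries, a difference that was not tested because the peak was not listed in the other 2. A peak 106216 bases into the gene, chr16:53810140-53810217, was found in every library apart from control replicate 1, at percentiles 25.3 and 43.9 in control cells and 31.8, 39.5 and 18.5 in knockdown libraries. Its start and end were the same in all 5 libraries.

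ALKBH5 had 2 peaks in every library, both with the same start and end throughout (gene ID 54890, chr17:18183828-18209954, plus strand). The peak at chr17:18184239-18185013, close to the start of the gene, had the score 3100 in every library apart from control replicate 1, where its percentile was 92.1. The peak at chr17:18194955-18195035 had percentiles of 18.8, 8.02 and 41.7 in control cells and 44.3, 46.9 and 16.8 in knockdown libraries. The latter means, 22.9 ± 17.2 and 36.0 ± 16.7 (SD, n = 3 each), differed by less than the spread between libraries (exact permutation p = 0.3).

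**Figure D2:**
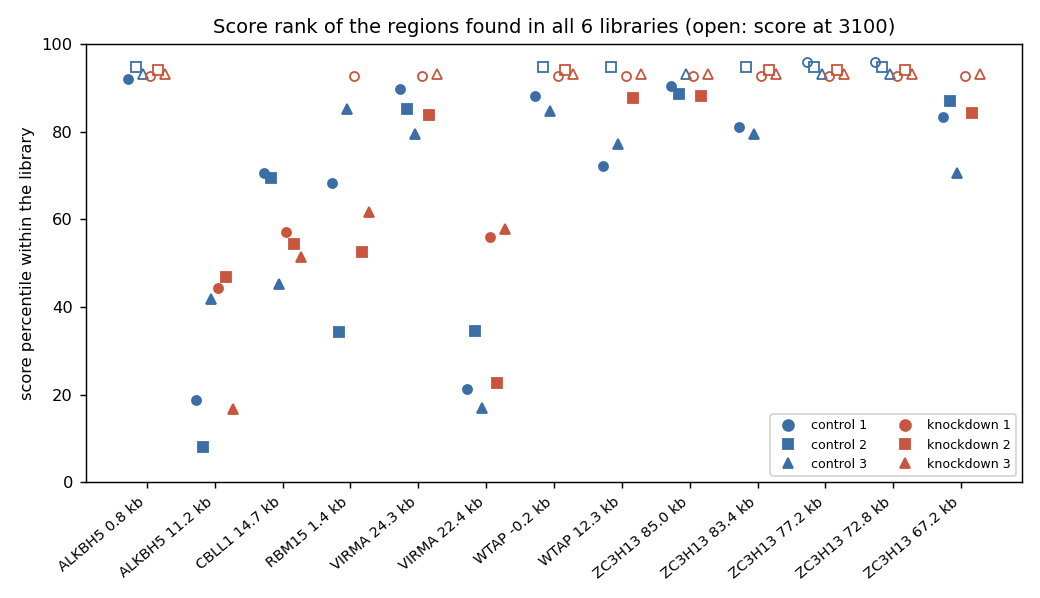
Score percentile within the library (vertical axis) of the 13 member regions found in all 6 libraries (horizontal axis, named by gene and position), with 1 point per library and open points at the score 3100. Control and knockdown points overlap in each region, and the regions range from near the bottom of the library (8.02 in ALKBH5) to the top.

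The peaks of the 10 genes that overlapped on the same strand formed 37 regions, of which 13 were found in all 6 libraries, 1 in 5, 12 in 2 to 4 and 11 in 1 library. Of these last 11, 7 were in knockdown replicate 1. At least 1 peak in each of the 6 libraries was held by 7 of the 10 genes, all but METTL3, METTL14 and METTL16, against 48.7% of the genes with a peak. FTO was the 1 gene of these 7 with no region found in all 6 libraries. The start region of WTAP is among the 13, with its peaks whose midpoint lay in the span, and that of CBLL1 is not.

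The 76 peaks of regions found in all 6 libraries had a median percentile of 90.1, between 8.02 and 96.0, against a median of 71.5 for such peaks over all genes. ZC3H13 gave 5 of the 13 regions, all with percentiles of 70.5 or higher in every library, so this median leans on 1 gene. The shared regions of the other members ranged from 8.02 to 94.8, and a median without ZC3H13 was not computed. The 29 peaks of regions in 2 to 4 libraries had a median of 32.8 and the 11 peaks of regions in 1 library a median of 8.17, against 20.3 over all genes. Of the 13 regions, 10 had the same start and end in all 6 libraries, and over all genes 69.5% of 9195 regions did.

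No member region separated all libraries of the groups by its presence: 0 had peaks in all 3 control and no knockdown libraries (0.34% of 41755 regions did) and 0 in all 3 knockdown and no control libraries (0.819%). Of the 13 regions in all 6 libraries, 0 had a higher percentile in every control library (4.05% of 9195) and 0 in every knockdown library (6.98%). Among libraries with the score 3100, percentiles differ only by how many peaks share it. The ZC3H13 regions at 45975283 and 45979813 had that score in all 6 libraries and ALKBH5 at 18184239 in 5. The WTAP start region and ZC3H13 at 45968748 had it in 4, every knockdown library and control replicate 2. In length, 0 were longer in every control library (0.587%) and 0 in every knockdown library (0.914%). Lengths could differ only where the edges varied, and 10 of the 13 regions had the same start and end throughout.

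Few member peaks lay at the far end of the genes. In the first 10% of the span lay 22 of the 121 peaks, 18.2%, against 27.6% of all gene peaks, and in the last 10% lay 2 peaks, 1.65%, against 14.1%. The 121 peaks form 37 regions, and a region counts once for each library that lists it, so these shares do not rest on 121 separate sites. The 2 far-end peaks, in FTO and ZC3H13, were each found in knockdown replicate 1 only. The middle 80% of the span held 97 peaks, 80.2%, close to its share of the length. ZC3H13 gave 42 of the 121 peaks, and without it 22.8% of the other 79 lay in the first 10% and 1.27% in the last. The midpoint rule left out 8 start peaks (6 of CBLL1 and 2 of WTAP), and with them the share of the first 10% was 23.3%. The 5 shared regions of ZC3H13 had their midpoints between 68.4% and 86.5% of its span, short of the last 10%.

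**Figure D3:**
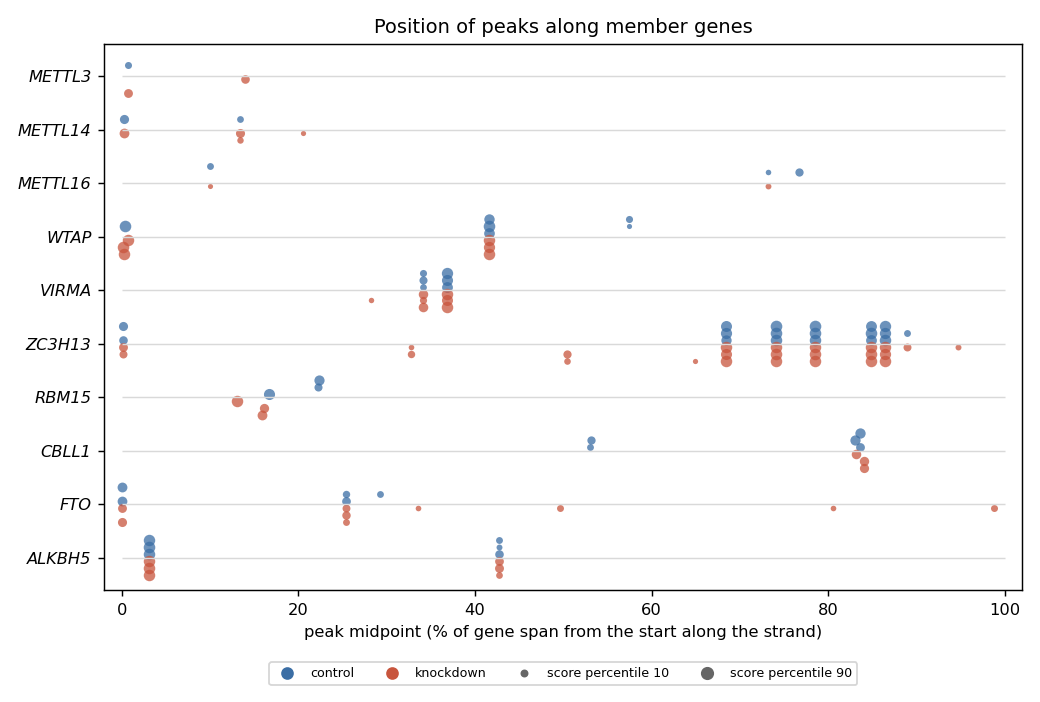
Midpoint of each member peak as percent of the gene span from its start (horizontal axis) by gene (vertical axis), with 1 point per peak and library. Peaks of METTL14 lie in the first 20.5% of the gene, those of VIRMA between 28.2% and 36.9%, and the shared regions of ZC3H13 between 68.4% and 86.5%.

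Other genes of the m6A pathway, a list of 31 with further methyltransferases, the methyl donor supply, AlkB homologues and m6A readers, gave 28 genes with a peak and 11 with a peak in all 6 libraries. Among all protein-coding genes 60.3% had a peak, and 48.7% of those had one in all 6 libraries. Of the 31, 0 had peaks throughout 1 group while lacking any in its counterpart. Of all genes with a peak, 0.331% did so for control and 0.364% for knockdown. In peak number, 0 had more in every control library (0.653% of all genes with a peak) and 1 had more in every knockdown library (1.57%). This was IGF2BP1, a reader that binds and stabilises m6A-bearing mRNA, with 1, 1 and 3 peaks in control cells and 4, 7 and 4 in knockdown libraries. The means were 1.67 ± 1.15 and 5 ± 1.73 (SD, n = 3; exact permutation p = 0.1), and the adjusted p over 12092 genes was 1.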

How the data were processed

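The authors deposited 1 peak list per ac4C immunoprecipitation library, without pooling, limited to mRNA, with chromosome, start, end, strand and a score of unstated scale that starts at 50. Peak names are those of the caller MACS, and GRCh38 is from the submitters' processing notes. The aligner, its version and the caller's settings are not given in the sources used here. The depth is unknown, so no interval was given. Positions are printed 1-based. Genes came from the GRCh38.p14 RefSeq table, with strand from the promoter table for 15843 genes and from the peaks for 2194. In 9360 genes with both, 99.3% had the same strand.

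Peaks of 1 strand that shared 1 base or more formed a region. For peak numbers, score percentiles (mean rank for ties), lengths and edges, the group means were compared in an exact permutation test (two-sided, 3 against 3 libraries) with Benjamini-Hochberg adjustment. All 10 members were named, regions in all 6 libraries were each described, and of the other m6A list those genes whose groups did not overlap. The members and lists were chosen with earlier results of these data known. Alternatives tried were the upper 50% of each list by score, 17877 peaks per library, any overlap, either strand, 1 gene only, at least 50% of a region covered, the percentile among peaks of shared regions, a replicate block and each library left out. The code was tested on simulated data. Python 3.11.15, numpy 2.4.6, pandas 2.3.3, scipy 1.17.1 and matplotlib 3.10.9 were used.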

Additional observations from a re-analysis of the deposited data

How the results depend on the processing

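Depth and signal over input were not given in the lists, so a peak that was not listed cannot be told from one just under the caller's limit, and with 3 against 3 libraries no exact permutation test can go below p = 0.1. Of 395 values compared under 15 settings, 13 differences changed direction and 14 counts moved, either to or from 0 or by over 1.5 times. The other 368 did neither, which does not mean that their size held: the difference in ZC3H13 peak number went from 2 to 0 with the 50% highest-scored peaks. Many of the 368 could not change, so their number is no measure of stability. The replicate block repeats the main difference, and a main difference of 0 has no direction to change. The WTAP peak number, with a main difference of 0, gave 0.667 with the 50% highest-scored peaks and -0.667 with any overlap, and both count among the 368. The number of genes whose groups do not overlap went from 1 to 0 with the 50% highest-scored peaks and with 17877 peaks per library, and leaving out each library gave 1 to 2 (2 without control replicate 1), where 4.55% to 6.26% of all genes did not overlap. With a library left out, regions present in every remaining library of 1 group and absent from its counterpart numbered 0 to 1, against 2.23% to 3.25% of all regions (1 without control replicate 1 or 3 or knockdown replicate 1 or 3). Regions whose lengths did not overlap numbered 0 to 2 of 13, against 2.01% to 4.56% (2 without knockdown replicate 1, 1 without control replicate 2). Regions whose percentiles did not overlap numbered 0 to 5 of 13, against 16.5% to 35.2%. Without control replicate 2, 5 were higher in knockdown libraries (13.1% of all 9195 regions were), and without knockdown replicate 3, 1 was (11.1%). Without control replicate 3, 3 were higher in control libraries (18.7%). Without knockdown replicate 2, 2 were higher in control libraries (15.7%) and 3 in knockdown libraries (11.5%). In both of these last settings the control-higher regions include the 2 ZC3H13 regions with the score 3100 in all 6 libraries. Their percentiles are set only by how many peaks share that score, so they show no separation of the groups. With 17877 peaks per library, 2 of 12 regions had higher percentiles in every knockdown library, against 6.52% of 7993 regions. Leaving out a library gave a summed difference of 0.167 (without knockdown replicate 1) to 6 peaks.

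Differences that turned were those in peak number of METTL14 (-0.167 without knockdown replicate 1, up to 1.33 with another library left out), METTL16 (0.167 without control replicate 2, down to -1), CBLL1 (0.333 with the 50% highest-scored peaks) and FTO (-0.667 with the 50% highest-scored peaks and -0.167 without knockdown replicate 1, up to 2.33). Turned differences in percentile were those of ALKBH5 at 18184239 (-0.716 to 0.659 with a library left out), RBM15 (-7.68 to 17.8) and ZC3H13 at 45967504 (-0.501 to 2.18), and the RBM15 length differed by -152.5 to 87.5 bases. The cause was not tested. The difference in the upstream edge of the RBM15 peak, an alternative added after seeing the data, was 290 to 493 bases with a library left out.

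The replicate numbers of control and knockdown libraries did not pair them: deviations of peak numbers correlated at -0.178, -0.1201 and -0.00275 for the same numbers, and not every library correlated best with its own number. The replicate block was a sign-flip test on libraries paired by replicate number, which leaves the summed difference at 3.67 peaks (exact sign-flip permutation p = 0.75). No block p was below 0.25, the smallest possible.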
